A study of Mus musculus with 8 samples.

Results

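The 39 genes described here encode the extracellular matrix apart from the collagens: adhesive and matricellular glycoproteins, elastic fibre and microfibril proteins, interstitial proteoglycans, basement membrane proteins, and the enzymes and chaperone that crosslink or fold the matrix. They are a list of names, with no threshold on a measured value, and all 39 were found among the 39017 gene identifiers of the count table and passed the filter on low counts, which left 18952 genes tested. The libraries came from fibroblasts of E13.5 mouse embryos (MEFs) that were either control cells or Mettl3 knockout cells, and for each genotype the study sequenced total RNA without stress, and RNA of the fraction enriched for stress granules after 30 min in 500 µM sodium arsenite. Each of the 4 groups had 2 replicates, described by the submitters as biological. Knockout was induced with 500 nM 4-hydroxytamoxifen for 48 h to activate Cre recombinase, with loss of Mettl3 checked after 7 days and cells collected the next day. The labels do not give the Cre driver, whether control cells also had the drug, or whether replicates came from different embryos. All RNA was selected for poly(A). Because total RNA was taken without arsenite and granule RNA after it, granule enrichment and the response to arsenite cannot be told apart in any comparison between the fractions.

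Matrix proteins are secreted by fibroblasts and assembled outside the cell: fibronectin and matricellular proteins bind integrins, fibrillins and microfibril-associated proteins form scaffolds on which elastin is laid down, and small leucine-rich proteoglycans bind collagen fibrils and growth factors. Laminins, nidogens and perlecan build basement membranes, lysyl oxidases crosslink collagen and elastin, and fibrillin microfibrils store latent TGF-beta. METTL3 is the methyltransferase that places N6-methyladenosine (m6A) in mRNA, mostly at the A of GGACT and related motifs in long internal exons and near stop codons. Stress granules are cytoplasmic condensates of untranslated mRNA and protein that form when translation initiation stalls, as it does under arsenite.

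The 8 libraries held between 67257220 and 123508539 counts, of which the members took 1.11% to 1.52%. Values are TMM-scaled CPM, a gene's count relative to the library's total, and a member was called when edgeR's quasi-likelihood F-test, fitted to all 8 libraries, gave a Benjamini-Hochberg adjusted p under 0.05 over the 18952 genes. Mettl3 stood at 24.9 to 25.4 CPM in control total RNA and 6.01 to 7.35 in knockout total RNA, and at 15.4 to 15.7 against 5.56 to 6.38 in the granule fraction, in the direction of its labels. The 2 knockout total RNA libraries stood apart from each other: 16 of 39 members differed more than 2-fold between them in CPM, and 40.1% of genes at 5 CPM or more did so. In the other groups the same held for Fmod alone, at 2.05-fold in control total and 2.01-fold in knockout granule libraries. Transcripts of mitochondrial genes made 7.60% of counts in knockout total replicate 1 and 6.16% and 8.81% in the knockout granule libraries, against 0.59% to 0.881% in the other 5 libraries. Fibroblast and mesenchyme markers summed to 3502 to 7587 CPM, here as CPM without TMM scaling, epithelial markers to 160 to 851 CPM, leukocyte markers to 37.0 to 93.0, endothelial markers to 6.35 to 19.0 and muscle markers to 2.12 to 7.21. Of the 6 endothelial markers, Cdh5, Tie1, Tek and Emcn were under 1 CPM in all 4 groups, and of the 6 muscle markers Myod1, Myog, Myf5 and Pax7 were.

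**Figure D1:**
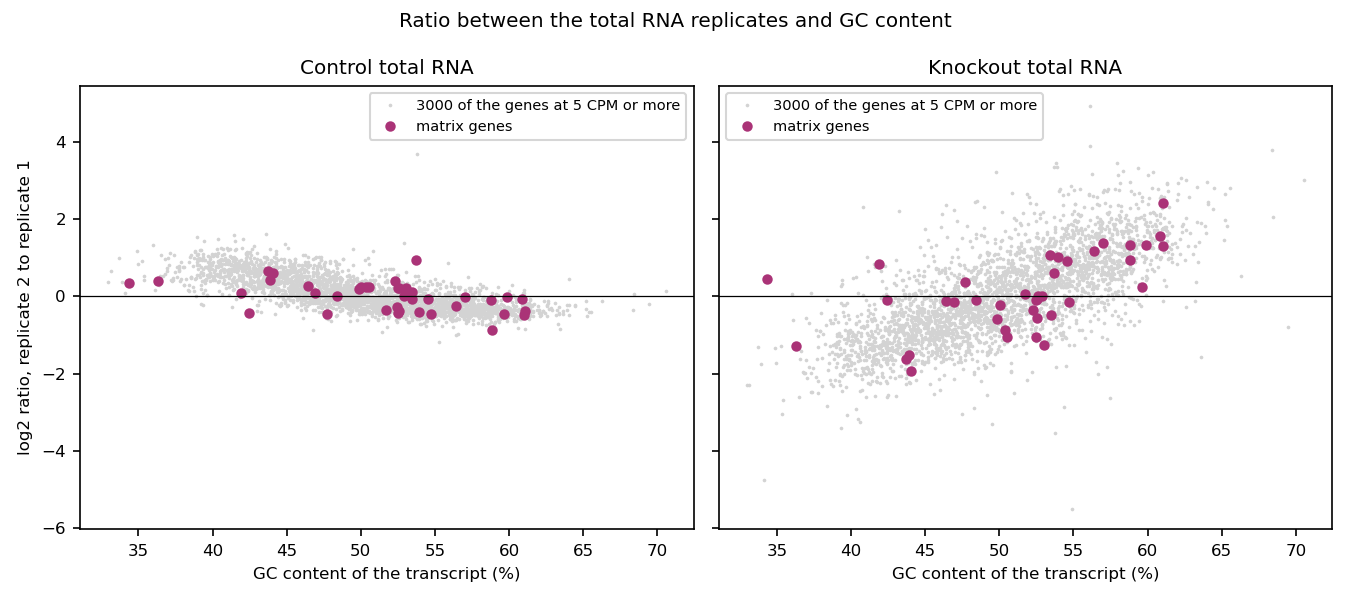
Log2 ratio of replicate 2 to replicate 1 in total RNA (vertical axis) against the GC content of the longest protein-coding transcript in percent (horizontal axis), for control cells on the left and knockout cells on the right. Purple points are the 39 matrix genes and grey points 3000 of the genes at 5 CPM or more. The knockout replicates differ more, and in opposite directions at low and high GC content.

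Among the 39 members the ratio of knockout total replicate 2 to replicate 1 had a Spearman correlation with GC content of 0.65, and that of the control total replicates one of -0.55. Over all genes at 5 CPM or more the values were 0.73 and -0.76. Low-GC Postn, Vcan, Ogn and Lox were lower in knockout total replicate 2 and high-GC Emilin1, Hspg2, Lama5, Lamb2 and Loxl1 were higher. Aspn and Lum, also low in GC, were higher by 0.45 and 0.84 on the log2 scale, against the trend. Every comparison that includes knockout total RNA therefore carries this spread, and the shared estimate of the spread carries it into the others. In each comparison the value without either library is given.

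Members that the granule comparison between genotypes called, with values below, were Tgfbi, Fbn1, Fbln1, Mfap2, Mfap5, Fmod, Lama4 and Loxl2. Because METTL3 acts on GGACT and related motifs, the copy of GGACT nearest to the last coding base of the longest protein-coding transcript is shown for the 6 of these 8 genes that hold one. Each line is a window of 25 bases in transcript sense, from the GRCm38 annotation, with the motif in capitals.
Tgfbi: ccagtctgcaGGACTcatggagatc
Fbn1: tccatctgatGGACTgttccgcgtt
Fbln1: atgagctggaGGACTgcaaatctct
Fmod: gccccttacaGGACTgaaaaagcca
Lama4: gatgcccagaGGACTctctgatatc
Loxl2: acacttcagtGGACTtctaaataac
The Tgfbi motif lies in coding exon 12 of 17 at chr13:56632887-56632891 on the plus strand, and that of Lama4 in coding exon 26 of 38 at chr10:39082857-39082861, plus strand. The Loxl2 copy lies in the last exon, 14 of 14, at chr14:69693087-69693091 on the plus strand, and its first base is 29 bases before the last coding base. The Fbn1 copy is in the 3' UTR at chr2:125301252-125301256 on the minus strand, and the Fbln1 copy in the 3' UTR at chr15:85286125-85286129 on the plus strand. The single copy of Fmod is in the 5' UTR, in exon 1 at chr1:134037388-134037392, plus strand. From the first base of the motif to the last coding base, the other distances along the transcript were longer than in Loxl2. They were 333 bases for Fbn1, 473 for Tgfbi, 949 for Fbln1, 1330 for Fmod and 1776 for Lama4. Mfap2 and Mfap5, the 2 remaining genes, have no GGACT in transcripts of 1073 and 1506 bases, as do 8.16% of all protein-coding genes tested. A match is a description of letters and no methylation was measured in these libraries.

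As a group the members have longer transcripts than the other genes. Their median transcript was 4741 bases against 3028.5 over all protein-coding genes tested, and 28 of 39 were above that median. The members had 17 exons at the median against 8, a longest internal exon of 267 against 218 bases, and a GC content of 52.5% against 50.5%. GGACT was about as dense in them as elsewhere, at 0.962 against 1.06 copies per kb, and 19 of 39 members were above the median of all genes.

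Promoters of members are shown where the granule to total ratio differed between the genotypes by the interaction test below and RefSeq's promoter table (build GRCm38.p6) held the gene. This was so for Tgfbi and Mfap2. Each runs from 250 bases before the start to 50 after it, with matches to any of 4 short motifs, on either strand, in capitals. No match in these 2 promoters overlaps another.
Tgfbi promoter, chr13:56609336-56609635, plus strand: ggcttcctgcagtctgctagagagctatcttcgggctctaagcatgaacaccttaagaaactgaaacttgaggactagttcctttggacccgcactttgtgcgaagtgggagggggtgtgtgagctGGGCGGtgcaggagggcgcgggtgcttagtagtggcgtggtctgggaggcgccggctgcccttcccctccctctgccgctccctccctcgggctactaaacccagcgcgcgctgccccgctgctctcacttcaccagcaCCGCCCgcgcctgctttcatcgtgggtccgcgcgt
Mfap2 promoter, chr4:141010174-141010473, plus strand: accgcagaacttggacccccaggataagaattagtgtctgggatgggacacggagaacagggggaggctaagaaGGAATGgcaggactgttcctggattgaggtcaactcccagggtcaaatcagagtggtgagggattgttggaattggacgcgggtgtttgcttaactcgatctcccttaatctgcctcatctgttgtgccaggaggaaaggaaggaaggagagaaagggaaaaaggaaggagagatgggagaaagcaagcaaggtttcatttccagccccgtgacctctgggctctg
The Tgfbi promoter holds 2 GC boxes and the Mfap2 promoter 1 TEAD motif. The GC box, with the letters GGGCGG, was found in 13 of the 23 members in the table and in 35.9% of all 27025 promoters of that length. The TATA box, spelled TATAAA, was found in 5 members (Postn, Tnc, Thbs2, Ogn and Aspn) and in 14.2% of all promoters. The TEAD motif, spelled GGAATG, was found in 3 members (Mfap2, Ogn and Nid1) and in 14.6% of all promoters. The AP-1 motif, spelled TGANTCA, was found in 0 members and in 7.93% of all promoters.

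Per kb of exon, levels spanned 4 orders of magnitude. In control total RNA the members with the highest mean CPM per kb of exon were Serpinh1 at 555, the collagen chaperone HSP47, then Sparc at 432, a calcium-binding matricellular protein, Bgn at 385, the proteoglycan biglycan, and Fbln2 at 312, the elastic fibre glycoprotein fibulin-2. Perlecan, Hspg2, led the basement membrane class at 60.3. At the other end stood Lama2 at 0.0527, Fmod at 0.0679 and Fbn2 at 0.0875 CPM per kb. With the longest protein-coding transcript as the length, Bgn came first at 971 CPM per kb, then Sparc at 712 and Serpinh1 at 596, and Lamb1 at 61.8 passed Hspg2 at 60.8.

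**Figure D2:**
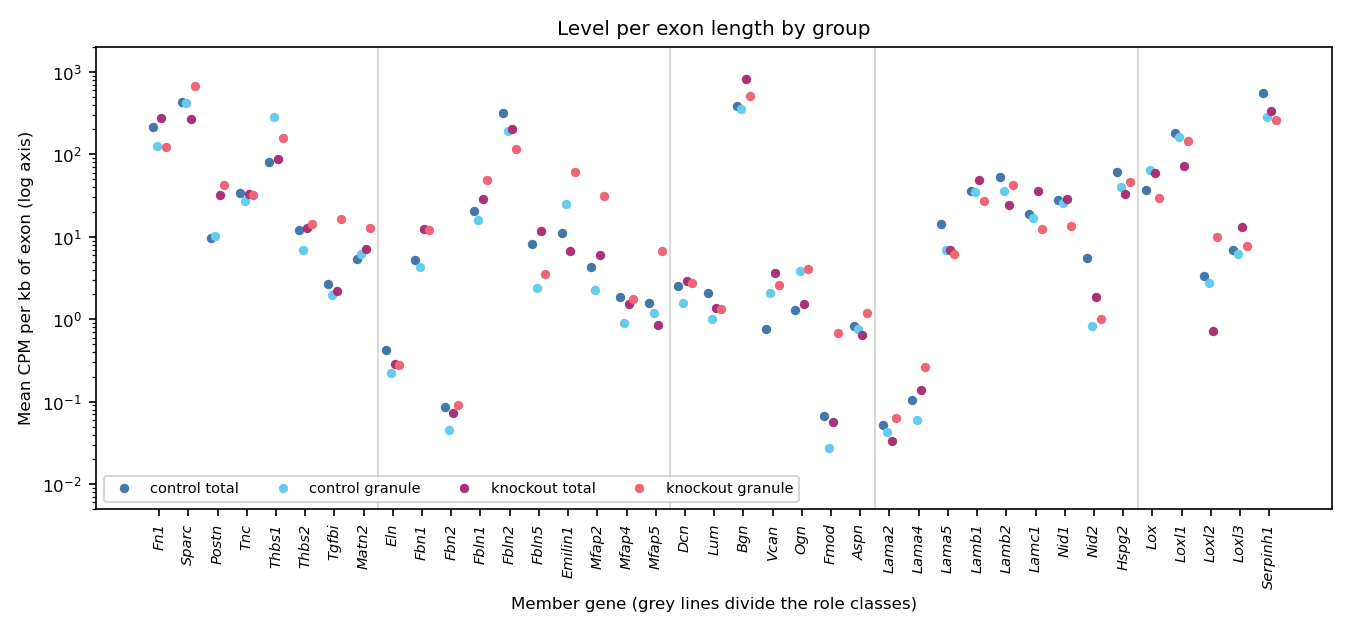
Mean CPM per kb of exon of each member (vertical log axis) in the 4 groups, shown by colour, with the members on the horizontal axis ordered by role class. Each point is the mean of 2 libraries, and Bgn, Sparc and Serpinh1 lie near the top of every group while Fbn2 and Lama2 lie near the bottom.

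The values behind these leading members varied between groups. Sparc stood at 1882 and 1392 CPM in control total RNA, 1527 and 1639 in the control granule libraries, 1049 and 981 in knockout total RNA and 2723 and 2348 in the knockout granule libraries. Bgn had 2564 and 2133, 2128 and 2239, 6700 and 3240, and 3169 and 3068 CPM in the same order. Both genes had their highest value in a knockout library, granule RNA for Sparc and total RNA for Bgn. Serpinh1 had 1468 and 1244, 665 and 702, 506 and 1153, and 693 and 595 CPM, and Fbln2 had 2007 and 1974, 1288 and 1145, 715 and 1861, and 751 and 718 CPM. Both were highest in control total RNA, and their knockout total replicates were more than 2-fold apart. Hspg2 had 883 and 842, 666 and 493, 239 and 706, and 689 and 624 CPM, with the lowest value in knockout total replicate 1. None of Bgn, Serpinh1, Fbln2 and Hspg2 was called in any comparison.

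The granule fractions of the 2 genotypes were compared to ask how the matrix transcripts recovered with stress granules differ when METTL3 is missing. In all, 8 of 39 members were higher in the knockout granule libraries and 0 lower. They comprised 1 of 8 adhesive and matricellular glycoproteins (Tgfbi), 4 of 10 elastic fibre and microfibril genes (Fbn1, Fbln1, Mfap2 and Mfap5), 1 of 7 interstitial proteoglycans (Fmod), 1 of 9 basement membrane genes (Lama4) and 1 of 5 crosslinking and chaperone genes (Loxl2). Fold differences ran from 2.78 for Fbn1 to 24.1 for Fmod. Over all genes 9.45% were called, 5.79% higher and 3.66% lower. The median log2 fold change was 0.51 over the members against 0.08 over all genes, and 29 of 39 members were above 0. Ranges did not overlap for 22 members that were higher and 7 that were lower, against 40.4% and 36.6% of all genes.

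**Figure D3:**
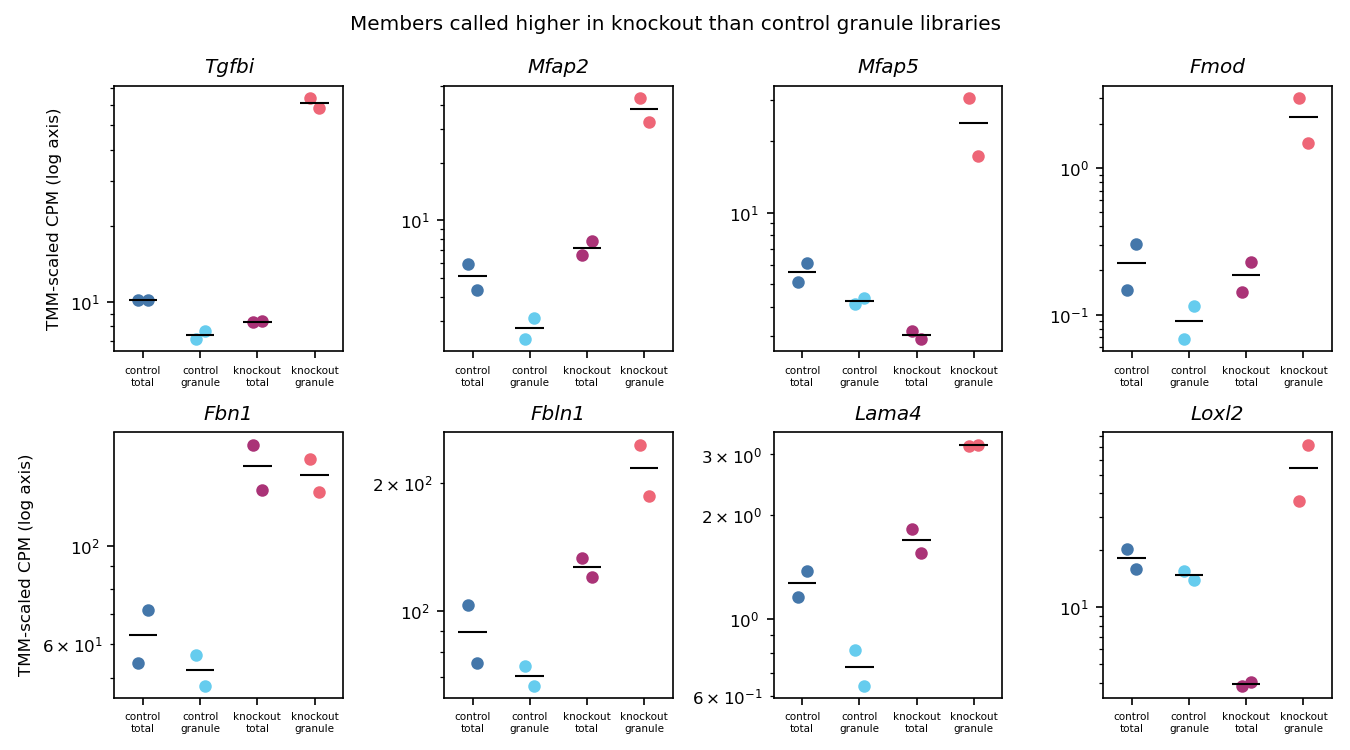
TMM-scaled CPM (vertical log axis, scaled for each gene) of the 8 members called between knockout and control granule libraries, in each library of the 4 groups on the horizontal axis. Points are libraries and bars are group means. In every panel both knockout granule points lie above both control granule points, and for Fbn1 the knockout total points lie as high as the knockout granule points.

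Tgfbi encodes a secreted TGF-beta-induced adhesion protein. Its CPM was 10.2 and 10.2 in control total RNA, 7.12 and 7.67 in control granule, 8.31 and 8.38 in knockout total and 64.1 and 58.7 in knockout granule libraries. The knockout granule libraries were far above the other 6, which lay within a narrow range. Its log2 fold change between the granule groups was 3.05 (SE 0.26, edgeR adjusted p = 0.00272), an 8.30-fold difference. Of the other adhesive genes, periostin (Postn) had 95.9 and 80.6 CPM in control granule against 405 and 336 in knockout granule libraries and a log2 difference of 2.07 (edgeR adjusted p = 0.0595), not called. Thbs2, an angiogenesis inhibitor, also narrowly missed the threshold at a log2 difference of 1.01 (edgeR adjusted p = 0.0555).

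Mfap2 and Mfap5 encode the microfibril-associated glycoproteins that bind fibrillin. Mfap2 CPM was 5.94 and 4.37 in control total, 2.41 and 3.11 in control granule, 6.61 and 7.8 in knockout total and 43.3 and 32.4 in knockout granule libraries. Mfap5 had 5.09 and 6.1, 4.12 and 4.37, 3.16 and 2.91, and 30.5 and 17.4 CPM in the same order. In both genes the knockout granule libraries were above all others, although the 2 Mfap5 replicates were well apart. The log2 differences between granule groups were 3.78 (SE 0.34, edgeR adjusted p = 0.00298) for Mfap2 and 2.50 (SE 0.34, edgeR adjusted p = 0.00882) for Mfap5. Fibrillin-1 (Fbn1), the main microfibril scaffold, had 54.2 and 71.4, 56.7 and 48.1, 170 and 135, and 158 and 133 CPM. Fibulin-1 (Fbln1), an elastin-binding glycoprotein, had 103 and 75.5, 74.2 and 66.8, 133 and 120, and 246 and 186 CPM. In each of these 2 genes both knockout groups lay above both control groups, as they also did in Mfap2 and Lama4. Their log2 differences between granule groups were 1.47 (SE 0.28, edgeR adjusted p = 0.0201) and 1.61 (SE 0.28, edgeR adjusted p = 0.0159). Reads on 20.1% of Fbn1 exon bases could also come from the antisense gene Gm9913, since whether the counting used strand is not given in the sources used here.

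Among the proteoglycans, fibromodulin (Fmod), which binds collagen fibrils and steers their assembly, was close to the detection floor of 3 counts in several libraries. Its raw counts were 10 and 28 in control total, 7 and 13 in control granule, 16 and 22 in knockout total and 328 and 146 in knockout granule libraries, or 0.147 and 0.302, 0.0679 and 0.114, 0.144 and 0.228, and 2.99 and 1.49 CPM. Only the knockout granule libraries reached 1 CPM, so the 24.1-fold difference (log2 4.59, SE 0.61, edgeR adjusted p = 0.00845) starts from a very low level. All 7 proteoglycans had log2 differences above 0, from 0.10 for Ogn upward, but the other 6 were not called. Laminin alpha-4 (Lama4), a chain of the vascular and mesenchymal laminins, had 1.16 and 1.38, 0.815 and 0.642, 1.82 and 1.56, and 3.17 and 3.2 CPM. Its log2 difference between granule groups was 2.13 (SE 0.32, edgeR adjusted p = 0.0113), with no other laminin called.

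Loxl2, a lysyl oxidase that crosslinks collagen and acts on collagen IV in basement membranes, had 20.3 and 15.9 CPM in control total, 15.6 and 13.9 in control granule, 3.86 and 4.02 in knockout total and 36.4 and 72.2 in knockout granule libraries. As in Mfap5 and Sparc, knockout total RNA was the lowest group and knockout granule RNA the highest, and the genotypes did not overlap in either fraction. Its log2 difference between granule groups was 1.88 (SE 0.36, edgeR adjusted p = 0.0231). Lox, Loxl1, Loxl3 and Serpinh1 were not called, with log2 differences from -1.13 (Lox) to 0.31 (Loxl3).

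In the knockout granule libraries that gave these 8 calls, fibroblast markers summed to 6692 to 7587 CPM against 5486 to 5678 in control granule libraries, chondrocyte markers to 78.1 to 81.4 against 49.1 to 49.9 (Sox9 apart, all chondrocyte markers were under 1 CPM), and epithelial markers to 612 to 793 against 706 to 851. Leukocyte markers summed to 65.5 to 65.6 against 37.0 to 50.3, endothelial markers to 11.8 to 15.4 against 6.35 to 8.52, neural markers to 20.2 to 21.2 against 27.1 to 30.8 and muscle markers to 4.2 to 5.49 against 2.12 to 4.81. Within these lists genes went both ways. Of 6 neural markers 4 had a log2 difference above 0 and 2 below, with Elavl3 called higher. Of 8 fibroblast markers 6 were above 0 and 2 below, with 2 called higher and 1 lower. Mitochondrial transcripts were also higher in the knockout granule libraries, as given above. Their part in these results was not tested, and in bulk RNA fewer cells of a type and less RNA per cell cannot be told apart. Without control granule replicate 1 or replicate 2, 0 members were called by edgeR (10 and 11 at an unadjusted p under 0.05), and 0 of all genes. Without knockout granule replicate 1 the calls numbered 2 (Tgfbi and Mfap2) and without replicate 2 they numbered 4 (Tgfbi, Mfap2, Mfap5 and Fmod). Without knockout total replicate 1, 17 members were higher and 5 lower (19.6% and 19.4% of all genes), and without replicate 2, 16 were higher and 5 lower (17.9% and 21.0% of all genes). All 8 genes remained called in both. The share of all genes called without a knockout granule library is not given here, so the loss of calls there cannot be read as particular to the members. With the trend on GC content removed from each library, 10 members were called higher and 4 lower, with 24.0% of all genes called.

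In control cells the granule fraction was compared with total RNA to ask which matrix transcripts it held in excess or in deficit. Thrombospondin-1 (Thbs1), a matricellular protein that activates latent TGF-beta, was 3.56-fold higher in the granule fraction, and fibulin-5 (Fbln5) and nidogen-2 (Nid2) were 3.40-fold and 6.71-fold lower. No other member was called, so 3 of 39 members were called, against 10.1% of all genes, 5.89% higher and 4.17% lower. The median log2 fold change was -0.34 over the members against -0.06 over all genes, with 32 of 39 members below 0. All 9 basement membrane genes had a log2 value below 0. Ranges did not overlap for 5 members higher and 23 lower, against 35.2% and 37.3% of all genes. Epithelial markers summed to 389 to 458 CPM in control total and 706 to 851 in control granule libraries, and fibroblast markers to 4571 to 5360 and 5486 to 5678.

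Thbs1 stood at 451 and 518 CPM in control total and 1902 and 1546 in control granule libraries, and at 634 and 426 in knockout total and 1090 and 842 in knockout granule libraries. Granule libraries were above total RNA in both genotypes without overlap. The log2 difference was 1.83 in control cells (SE 0.31, edgeR adjusted p = 0.0156) and 0.87 in knockout cells (edgeR adjusted p = 0.0826), and the difference between these had an edgeR adjusted p of 0.197. Nid2, which links laminin to collagen IV, had 29.1 and 27.8 CPM in control total, 4.66 and 3.81 in control granule, 6.7 and 12.6 in knockout total and 6.54 and 4.01 in knockout granule libraries. Control total RNA was above the other 3 groups, and the control difference had a log2 of -2.75 (SE 0.41, edgeR adjusted p = 0.0113). The Nid2 exons overlap antisense Rtraf over 8.45% of their bases. Fbln5, which tethers elastin to cells, had 54.5 and 58.5, 16.8 and 16.4, 85.8 and 78.4, and 32.4 and 16.3 CPM, so that in both genotypes the granule libraries were below total RNA. Its log2 differences were -1.77 in control cells (SE 0.35, edgeR adjusted p = 0.024) and -1.75 in knockout cells (SE 0.35, edgeR adjusted p = 0.0158).

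Without any 1 of the 4 control libraries, 0 members were called by edgeR (4 to 9 at an unadjusted p under 0.05), and without knockout granule replicate 1 Thbs1 was not (edgeR adjusted p = 0.0532). Without knockout total replicate 1 the calls numbered 22 and without replicate 2 they numbered 20, against 40.6% and 39.9% of all genes, with all 3 genes among them.

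**Figure D4:**
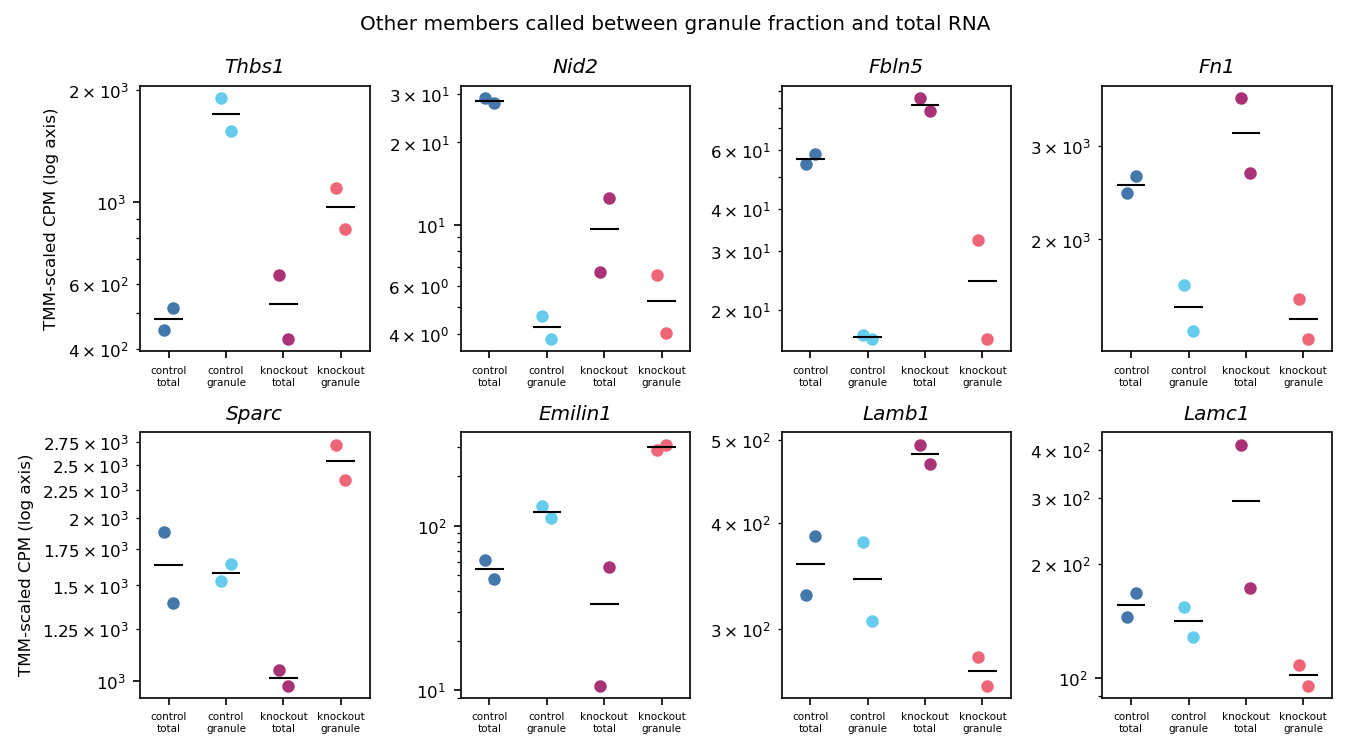
TMM-scaled CPM (vertical log axis, scaled for each gene) of the 8 members called between granule fraction and total RNA but not between the granule groups, in each library of the 4 groups on the horizontal axis. Points are libraries and bars group means. Fbln5 is lower in granule libraries of both genotypes, and in Sparc and Emilin1 the knockout granule points lie above all other points.

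The same comparison in knockout cells gave 11 called members, 7 higher in the granule fraction (Sparc, Tgfbi, Emilin1, Mfap2, Mfap5, Fmod and Loxl2) and 4 lower (Fn1, Fbln5, Lamb1 and Lamc1). The share of all genes called was 17.6%, 9.17% higher and 8.47% lower. Loxl2 was 13.8-fold and Fmod 12.0-fold higher in granule than in total RNA, and Lamc1 was 2.88-fold lower. The median log2 fold change was 0.19 over the members and 0.04 over all genes, and ranges did not overlap for 17 members higher and 8 lower, against 31.5% and 26.5% of all genes. This comparison shares its granule libraries with that between the genotypes, so that Tgfbi, Mfap2, Mfap5, Fmod and Loxl2 rest on the same knockout granule values in both. Between these groups epithelial markers summed to 160 to 165 CPM in total and 612 to 793 in granule libraries, with Krt8 and Krt18 called higher, and fibroblast markers to 3502 to 3515 and 6692 to 7587. Their part in the result was not tested.

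The log2 differences of those 5 genes in knockout cells were 2.88 for Tgfbi (edgeR adjusted p = 0.00213), 2.39 for Mfap2 (edgeR adjusted p = 0.00443), 2.98 for Mfap5 (edgeR adjusted p = 0.00334), 3.58 for Fmod (edgeR adjusted p = 0.00765) and 3.79 for Loxl2 (edgeR adjusted p = 0.00305). Sparc, with the values given above, had 1.32 (SE 0.27, edgeR adjusted p = 0.017). Emilin1, an elastic fibre glycoprotein that restrains TGF-beta processing, had 62.1 and 47.6 CPM in control total, 132 and 112 in control granule, 10.6 and 56.5 in knockout total and 289 and 312 in knockout granule libraries. Its granule values were above total RNA in both genotypes, with a log2 difference of 3.16 in the knockout (SE 0.68, edgeR adjusted p = 0.0202), but its 2 knockout total libraries were more than 2-fold apart.

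Fibronectin (Fn1), the adhesive scaffold bound by integrins, had 2444 and 2634 CPM in control total, 1641 and 1343 in control granule, 3698 and 2665 in knockout total and 1541 and 1296 in knockout granule libraries. Granule values were below total RNA in both genotypes, with log2 differences of -1.17 in the knockout (SE 0.29, edgeR adjusted p = 0.0297) and -0.77 in control cells (edgeR adjusted p = 0.117). Laminin beta-1 (Lamb1) had 329 and 386, 380 and 307, 494 and 468, and 278 and 257 CPM, and laminin gamma-1 (Lamc1) had 145 and 168, 154 and 129, 414 and 174, and 108 and 95.6 CPM. These chains occur together in many laminins, and in both the knockout total libraries were above the knockout granule libraries. Their log2 differences in knockout cells were -0.84 (SE 0.25, edgeR adjusted p = 0.0498) and -1.53 (SE 0.40, edgeR adjusted p = 0.0367), the first only just under the threshold.

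Without knockout granule replicate 1 the calls numbered 4 (Tgfbi, Fbln5, Mfap5 and Loxl2) and without replicate 2 they numbered 5 (Tgfbi, Mfap2, Mfap5, Fmod and Loxl2). They numbered 7 without either control granule library, where Fn1, Sparc, Lamb1 and Lamc1 were lost, and 8 without either control total library, where Fn1, Lamb1 and Lamc1 were lost. Without knockout total replicate 1 or 2 they numbered 23 and 20, against 34.0% and 48.2% of all genes, and all 11 remained. The shares of all genes called without a granule library or a control total library are not given here, so the losses there cannot be read as particular to the members. When only the 4 knockout libraries were fitted, 0 members and 0 of all genes were called by edgeR, with 12 members at an unadjusted p under 0.05.

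Between the total RNA groups, 0 of 39 members were called by edgeR, with 13 at an unadjusted p under 0.05 (6 higher and 7 lower in the knockout). The share of all genes under that unadjusted p is not given here. DESeq2 called 7 and voom 0, against 13.2% and 0.164% of all genes by the same methods. By edgeR only 0.412% of all genes were called, 0.274% higher and 0.137% lower. Ranges did not overlap for 13 members higher and 14 lower, against 24.4% and 24.7% of all genes, and the median log2 fold change was -0.01 for members against 0.02. The lowest adjusted p was that of Loxl2, with a log2 difference of -2.20 (SE 0.37, edgeR adjusted p = 0.0574). The large hyaluronan-binding proteoglycan versican (Vcan) had the highest, 2.29 (edgeR adjusted p = 0.112), from 8.47 and 13.3 CPM in control against 80.4 and 26.1 in knockout total RNA, with replicates over 2-fold apart. Without knockout total replicate 1 the calls numbered 5 and without replicate 2 they numbered 20, against 5.52% and 47.8% of all genes.

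**Figure D5:**
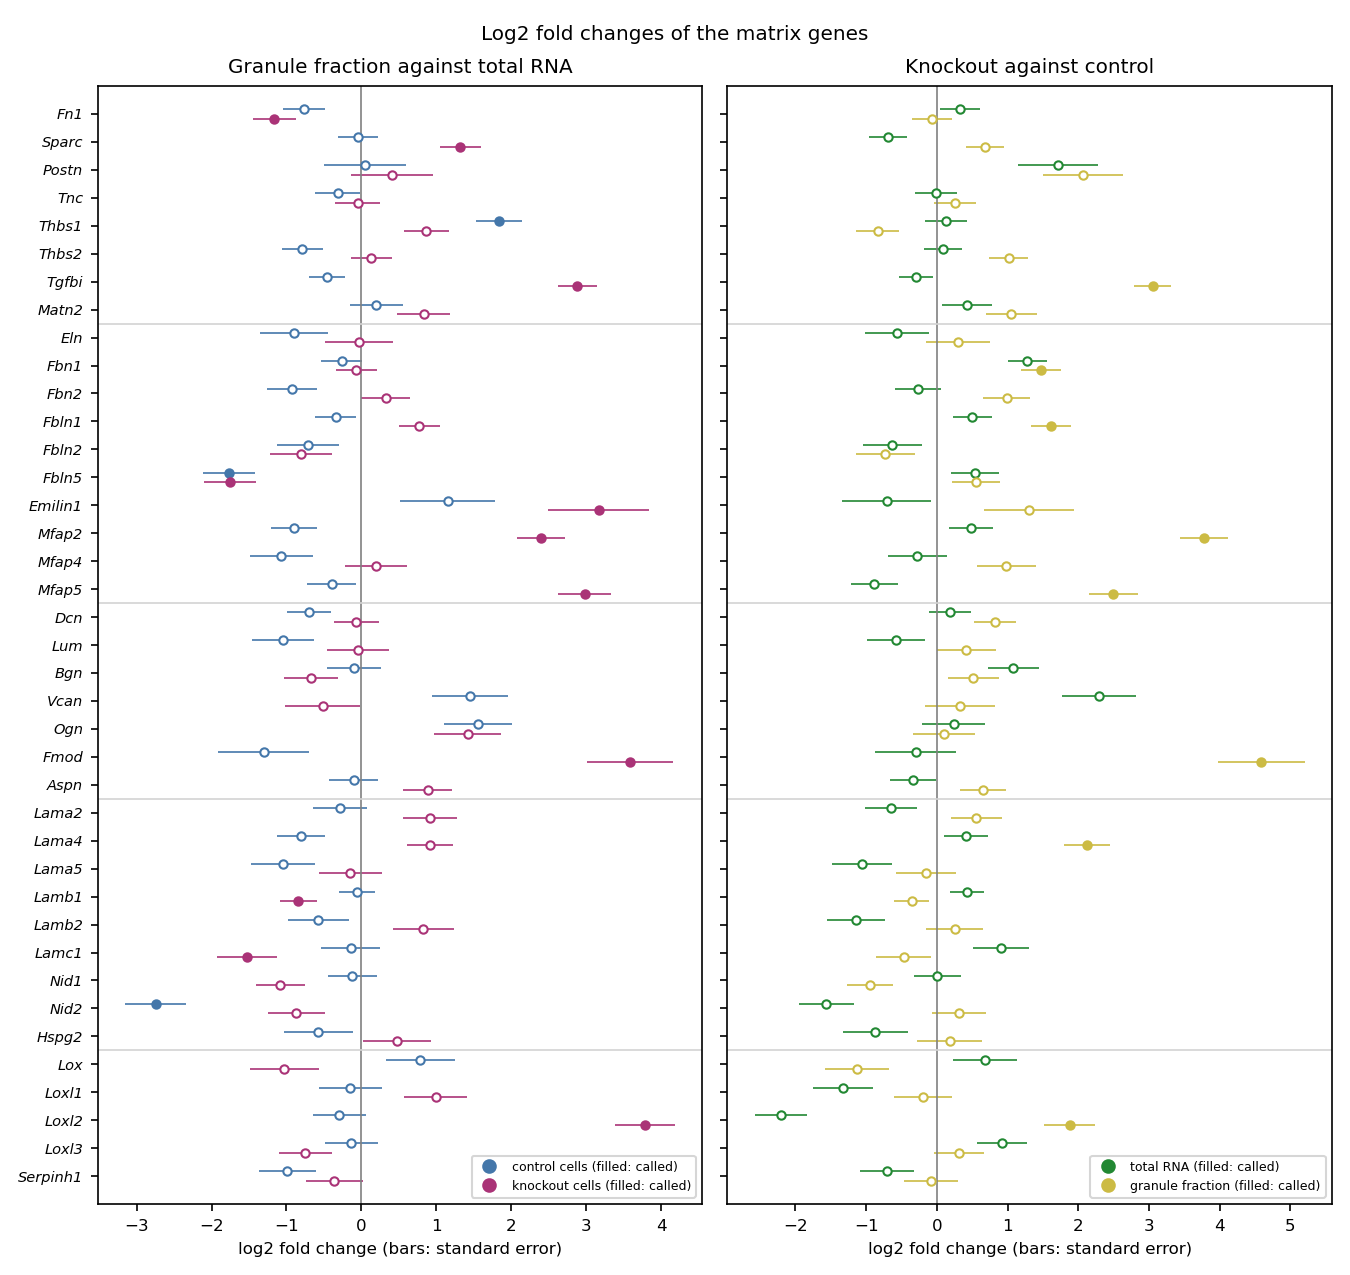
Log2 fold change with its standard error for each of the 39 members, by role class from top to bottom, for granule fraction against total RNA (left, control and knockout cells in different colours) and for knockout against control (right, total RNA and granule fraction). Filled points were called by edgeR at an adjusted p under 0.05. On the right no total RNA point is filled, and the 8 filled granule points all lie to the right of 0.

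The interaction asks whether the granule to total ratio differed between the genotypes. It did so for 4 members, all with a higher ratio in the knockout: Tgfbi, Mfap2, Mfap5 and Loxl2. The log2 difference of ratios was 3.34 for Tgfbi (SE 0.35, edgeR adjusted p = 0.0374), 3.29 for Mfap2 (SE 0.44, edgeR adjusted p = 0.039), 3.38 for Mfap5 (SE 0.47, edgeR adjusted p = 0.0405) and 4.08 for Loxl2 (SE 0.52, edgeR adjusted p = 0.0375). Fmod had the largest value of all members, 4.89, with an edgeR adjusted p of 0.0567. The adjusted p-values of the 4 lie close to the threshold, and among all genes 0.517% were called, 0.401% higher and 0.116% lower. Another 12 members were below an unadjusted p of 0.05, which makes 16 in all, 13 higher and 3 lower. How many of all genes were below it is not given here, so these counts cannot be read as particular to the members. The median was 0.90 over the members against 0.09 over all genes. In Fbn1, by contrast, the value was 0.19 (edgeR adjusted p = 0.771), its fold being alike in both fractions.

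Without any 1 control library or knockout granule library, 0 members were called for this interaction by edgeR (7 to 13 at an unadjusted p under 0.05), and 0 of all genes. Without knockout total replicate 1 or 2 the calls numbered 16 and 25, against 18.6% and 46.4% of all genes, with all 4 among them.

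Transcript features that were not used to choose the members were set against these log2 differences. Over the 39 members, which share the same libraries, the Spearman correlation of the knockout against control granule difference was -0.41 with GGACT copies per kb and -0.34 with transcript length. Over all protein-coding genes the values were 0.09 and -0.16, so the motif value among the members has the opposite sign from that over all genes. The same held for GC content (-0.10 among members, 0.20 over all genes) and for the longest internal exon (-0.27 and 0.03). The motif value was the largest in size of the member correlations computed over all features and comparisons, and its difference from that over all genes was not tested. For the interaction, the correlation with GC content was 0.31 over the members and 0.53 over all genes. The GC content of the 4 interaction genes ran from 46.4% for Mfap5 to 59.7% for Mfap2.

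The genes through which cells bind, load and signal with this matrix were counted as lists. Of 24 matrix receptors, 3 were called between the granule groups, or 12.5% against 9.45% of all genes: the integrin chain Itgb3 was higher, and Itga3 and dystroglycan (Dag1) were lower. Itgb3 stood at 2.97 and 1.95 CPM in control granule and 10.9 and 11.4 in knockout granule libraries, and Itga3 at 345 and 319 against 113 and 107. In control cells the laminin receptor chain Itga6 was higher and Itga1 lower in the granule fraction, and in knockout cells Itgb3 and Itga10 were higher. These made 8.33% of the receptors in each genotype, against 10.1% of all genes in control and 17.6% in knockout cells. Of 17 TGF-beta ligands, latency proteins, receptors and response genes, Tgfb1 was higher and the signal transducer Smad3 lower in knockout than in control granule libraries, or 11.8% called against the same 9.45%. Tgfb1 had 25.3 and 27.9 CPM in control granule and 98.9 and 76.3 in knockout granule libraries, while Smad3 had 135 and 120 against 59.0 and 49.9. In control cells 3 of the 17 were higher in the granule fraction (Tgfbr3, Smad7 and Ccn2) and 0 lower, against 5.89% and 4.17% of all genes. In knockout cells Tgfb3, Ccn2 and Pmepa1 were higher and Ltbp1 was lower, or 23.5% called against 17.6% of all genes.

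Of 20 tested genes of glycosaminoglycan synthesis, which make hyaluronan and the chains that proteoglycans carry, 6 were higher in the granule fraction of control cells, against 5.89% of all genes: Has2, Csgalnact1, Csgalnact2, Dse, Ext1 and Ugdh. The hyaluronan synthase Has2 had 3.46 and 6.74 CPM in control total and 35.1 and 28.2 in control granule libraries. In knockout cells Ext1, a heparan sulfate polymerase, was higher and Ndst1 lower, and between the granule groups Ugdh, which makes the UDP-glucuronic acid that these chains need, was lower in the knockout. These calls made 10% and 5% of the tested list, against 17.6% and 9.45% of all genes. In the total RNA comparison and the interaction, 0 genes of these lists were called by edgeR, although 4, 3 and 5 receptor, TGF-beta and glycosaminoglycan genes and 9, 8 and 6 of them, in that order, had an unadjusted p under 0.05. DESeq2 called 3, 3 and 3 of them in total RNA and 5, 6 and 6 for the interaction, and voom called 0, 0 and 0, and 2, 1 and 1. Over all genes DESeq2 called 13.2% in total RNA and 14.5% for the interaction, and voom 0.164% and 2.11%.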

How the data were processed

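The values are raw counts per gene, one column for each of the 8 libraries, deposited by the authors as a single table. Per the submitters' processing notes, STAR and DESeq2 were used with builds GRCm38 and mm10. The counting program, its strand setting and the annotation release are not given in the sources used here. Of 39017 identifiers, 37693 were matched to GENCODE M21 for symbols, lengths and exons. Genes were filtered with filterByExpr, scaled by TMM and fitted in edgeR 4.0.16 (R 4.3.3) with 1 mean per group over 8 libraries, which left 4 residual degrees of freedom, and tested with the robust quasi-likelihood F-test for 5 contrasts. P-values were adjusted by Benjamini-Hochberg over 18952 genes and only the members are printed. The log2 CPM behind the replicate ratios, the GC trend and the deviations of same-numbered libraries used a prior count of 2. The log2 fold changes came from the fits and did not use it. With 2 replicates a group, p-values set a difference between groups against the spread between replicate libraries, which was estimated over the 4 groups together with information shared across genes. The members and lists were chosen with earlier results of these data known. Values in every library are given for members called in any contrast and for the member highest per length in each role class, and the others by counts and ranges. Role classes, 4 companion lists and 7 marker lists were counted without a set test. Counts at an unadjusted p under 0.05, and some counts in fits without 1 library, are given without the share over all genes. Such counts cannot be read as particular to the members or lists. A gene of the TGF-beta list is not reported here and was left out of its counts. Alternatives were median-of-ratios factors, library size alone, DESeq2 1.42.0, voom with quality weights (limma 3.58.1), other filters, a replicate block, removal of the GC trend, fits limited to the libraries of 1 comparison, and omission of each library in turn. The tests were checked on simulated data.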

Additional observations from a re-analysis of the deposited data

Results flagged for a closer look

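For 4 members the granule to total ratio differed between control and knockout cells by the interaction test itself, in which edgeR's adjusted p was under 0.05. The log2 difference of ratios, knockout against control, was 3.34 for Tgfbi, 3.29 for Mfap2, 3.38 for Mfap5 and 4.08 for Loxl2. In all 4 the knockout granule libraries were above the knockout total libraries without overlap, while in control cells both granule libraries were below both total libraries. The groups hold 2 libraries each, too few for a check for outlying libraries.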

How the results depend on the processing

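The number of members called depended on the fit. The 26 called pairs of a member and a comparison were followed through up to 18 alternative settings, which gave 461 results. Of these, 336 kept the call, 125 kept the direction and lost the call, and 0 reversed. Only pairs called in the main fit were followed, and the fits reuse the same libraries. A reversal could therefore hardly occur, and the 0 is no test of the directions. For granule against total RNA in control cells (3 called), DESeq2 called 7, voom 18, no filter 8, GC trend removed 7, GC trend removed with the replicate block 6 and only the groups compared 19, and leaving out 1 library gave 0 to 22. In knockout cells (11 called) voom called 5, GC trend removed 18 with and without the block and only the groups compared 0, and leaving out 1 library gave 4 to 23. For total RNA between genotypes (0 called) DESeq2 called 7, no filter 10, GC trend removed 4 and that with the block 1, with a range of 0 to 20. For the granule groups (8 called) voom called 24 (18 higher and 6 lower), GC trend removed 14 (10 higher and 4 lower) with and without the block and only the groups compared 25, with a range of 0 to 22. For the interaction (4 called) DESeq2 and no filter each called 10, and the replicate block 0 (12 at an unadjusted p under 0.05), with a range of 0 to 25. Among the fits without 1 library, the highest count came without a knockout total library in each comparison. The cause of the changes was not tested. Fitting only the groups compared gave no other fit for the interaction, which uses all 4 groups, and Fmod and Lama4 were not tested under the filter at a mean of 5 CPM. The replicate block gave 2, 8, 0, 6 and 0 calls in the order above. The replicates share only a number in the labels, and deviations of same-numbered libraries had correlations from -0.60 to 0.19, so no pairing was assumed. Calls over all genes, in the same order, made 21.5%, 26.9%, 13.2%, 17.8% and 14.5% with DESeq2, and 39.1%, 5.18%, 0.164%, 55.0% and 2.11% with voom. They made 13.2%, 17%, 11.2%, 11.2% and 11.5% with no filter, 20.1%, 32.5%, 4.06%, 24.0% and 9.49% with the GC trend removed, and 16.4%, 28.2%, 1.90%, 19.8% and 4.06% with that and the block. With only the groups compared they made 42.4%, 0%, 0% and 57.3%, so the 19 and 25 members called there (48.7% and 64.1%) are to be read against those shares. With the replicate block they made 3.07%, 10.0%, 0%, 3.54% and 0%. At 67257220 to 123508539 counts a library, 3 counts correspond to 0.0243 to 0.0446 CPM, which bears on Fmod.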

Other observations

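Of 10 proteases of the ADAMTS family and BMP1 group, which trim this matrix, 3 were called by edgeR between the granule groups, against 9.45% of all genes. Adamts9, a versican-cleaving protease, was higher in the knockout at 4.8 and 4.03 CPM against 0.738 and 0.598. Adamts5, an aggrecan- and versican-cleaving protease, was lower at 67.5 and 70.4 CPM against 318 and 303, and Tll1 was lower at 1.26 and 1.25 CPM against 8.39 and 7.87. In control cells Adamts5 was also higher in the granule fraction than in total RNA, where it stood at 55.9 and 76.8 CPM. No other protease was called there, or 10% against 10.1% of all genes. In knockout cells Bmp1, which cleaves procollagens and activates lysyl oxidase, was higher in the granule fraction at 188 and 175 CPM against 59.1 and 97.5, and Adamts12 was lower. These calls made 20% of the list, against 17.6% of all genes. In total RNA between genotypes and in the interaction, edgeR called 0 of the 10, with 1 and 4 at an unadjusted p under 0.05. DESeq2 called 1 and 4, against 13.2% and 14.5% of all genes, and voom 0 in both, against 0.164% and 2.11%.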
